A study of Mus musculus with 6 samples.

Results

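The genes described are the mitochondrial carriers of solute carrier family 25 (SLC25), chosen by symbol as every gene named *Slc25a* followed by a number. The count tables held 47 such genes among 23366, and 38 of the 47 passed the filter on low counts and were tested, among 12501 genes tested in all. Poly(A) RNA was sequenced from EpCAM-positive epithelium of the small intestine at E13.5, with 500 sorted cells in each library. There were 3 wild type libraries and 3 Shh-Cre-EGFP:*Tcf7l1* lox/lox libraries (mutant), in which a Cre made from the *Shh* locus, active in gut epithelium, deletes the floxed *Tcf7l1*. *Tcf7l1* encodes a TCF/LEF transcription factor of the WNT pathway. Neither a Cre-only nor a floxed-only group was among the samples, and all 6 libraries came from untreated embryos. The comparison asked how far carrier transcripts changed without TCF7L1.

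SLC25 proteins span the inner mitochondrial membrane and move nucleotides, phosphate, amino acids, carboxylic acids, cofactors and metal ions between the matrix and the cytosol. They are encoded in the nucleus, built of repeated units of similar sequence, and brought in through the TOM complex, small TIM chaperones and the TIM22 complex. In dividing epithelium they tie ATP export, one-carbon metabolism, redox shuttles and nucleotide supply to the rest of the cell.

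The symbol was the only criterion, so a feature of sequence that the members share is shown first. Each repeat of the carrier fold carries a signature of proline, any residue, aspartate or glutamate, any 2 residues, and lysine or arginine. The codons of this signature, 18 bases in frame, were searched in the longest coding sequence of each gene. At least 1 copy was found in 44 of 47 members (93.6%) and in 25.9% of 21918 protein-coding genes, and at least 3 copies were found in 27 members (57.4%) and in 2.31% of those genes. *Slc25a46*, which acts at the outer membrane, *Slc25a51* and *Slc25a53* held none. The 3 copies of the ADP/ATP carriers *Slc25a4* and *Slc25a5* are printed because both rose and *Slc25a5* had the highest level of the family. They are in mm9, with capitals for the proline codon, the acidic codon and the basic codon.
*Slc25a4*, repeat 1, exon 1, chr8:47296178-47296195, minus strand: CCGatcGAGagggtcAAA
*Slc25a4*, repeat 2, exon 2, chr8:47294560-47294577, minus strand: CCGctgGACtttgctAGG
*Slc25a4*, repeat 3, exon 3, chr8:47293786-47293803, minus strand: CCGtttGACactgttCGT
*Slc25a5*, repeat 1, exon 1, chrX:34335807-34335824, plus strand: CCCatcGAGagggtcAAG
*Slc25a5*, repeat 2, exon 2, chrX:34337123-34337140, plus strand: CCTcttGATtttgccCGT
*Slc25a5*, repeat 3, exon 3, chrX:34337820-34337837, plus strand: CCTtttGACacggttCGC
The coding sequences of this pair were identical at 79.1% of aligned bases, with at most 20 identical bases in a row, and the other 9 paralogue pairs compared lay between 70.3% and 76.5%. Among all members, *Slc25a5* had 2 other loci in the genome with at least 95% identity over at least 50% of its transcript, and *Slc25a40* had 1. Only uniquely mapped reads were counted, so reads of these genes that match such copies could be lost, and their counts are uncertain to that extent.

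The targeted gene was low in every mutant library. *Tcf7l1* had normalised read counts of 476, 474 and 364 in wild type and 41.4, 33 and 73 in mutant libraries 1 to 3. *Shh*, at whose locus the Cre stands, had 412, 543 and 489 against 185, 224 and 184. Total counts lay between 18216537 and 20397278. Wild type 3 stood nearer to the mutant libraries than the other wild type libraries did, with a chi-square per gene of 27.9 to 32.3 against each mutant library, compared with 39 to 54.2 for wild type 1 and 2. The summed level of 8 gut epithelium markers lay between 115000 and 124000 (wild type) and between 110000 and 114000 (mutant). *Epcam*, the sorting marker, made up the largest share and rose (52000 ± 4620 to 61700 ± 2110, adjusted p 0.013), while *Cdh1* (log2 fold change -0.57), *Krt8* (-0.32), *Krt18* (-0.54), *Cldn6* (-0.58) and *Cdx2* (-0.69) fell, and *Vil1* and *Hnf4a* did not pass. Of 6 gastric and pancreatic markers, 5 had counts, and their sum was 529 to 791 in wild type but 84.1 to 138 in mutant epithelium, with *Ptf1a* at 0. Most of the drop was in *Nkx6-3* (mean 384 to 13.8) and *Pdx1* (209 to 48.9), which the paper lists among enteroendocrine factors. *Barx1* fell too (36.2 to 1.38), while *Gkn1* had a mean of 43.4 in both groups. *Sox2*, too low to be tested, had 11.3, 6.53 and 10.5 normalised counts in wild type and 0 in every mutant library. All 4 liver markers had counts, with sums of 3690 to 4500 and 3240 to 3630, nearly all from *Afp* (means of 2860 and 2360) and *Ttr* (1140 and 1120). *Alb* was close to absent, with 0.938, 5.59 and 0 normalised counts in wild type 1 to 3 and 0 in every mutant library. The 7 mesenchyme markers summed to 1320 to 1550 and 1030 to 1470. Of these, *Vim* (-0.46) and *Col3a1* (-2.21) fell and *Acta2* rose (1.52), with 95.3, 171 and 489 normalised counts of *Acta2* in mutant 1 to 3, so mutant 3 was the highest. For the 5 neural crest markers the sums were 180 to 210 and 162 to 233. In endothelium 2 of 4 markers had counts (0 to 12.4 and 0 to 21.7), with *Cdh5* and *Kdr* at 0. Y-linked genes summed to 4710 to 4960 in wild type but 0 in mutant epithelium, and *Xist* stood at 0 and at 237 to 452, so sex and genotype cannot be told apart in any value below. The part of these differences in the carrier values was not tested. In bulk samples such as these, fewer cells of a type and less RNA per cell cannot be told apart either.

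In wild type epithelium the family was led by both tested ADP/ATP carriers, a glutathione carrier and the phosphate carrier. Levels between genes were compared as normalised counts per kb of exon, scaled to library size. *Slc25a5*, the ADP/ATP carrier of proliferating cells, stood at 723 ± 84.2 (SD, n = 3), *Slc25a4*, the heart and muscle type ADP/ATP carrier, at 389 ± 18.8, *Slc25a39*, a mitochondrial glutathione carrier, at 199 ± 10.7 and *Slc25a3*, the phosphate carrier, at 123 ± 11.7. Their ranges over the 3 libraries did not overlap. Among 21978 genes with a length they ranked 45, 111, 340 and 652. *Slc25a11*, the oxoglutarate carrier (102 ± 2.97), and *Slc25a1*, the citrate carrier (97 ± 3.79), followed and overlapped each other. *Slc25a17*, a peroxisomal carrier of cofactors, came next at 62 ± 0.925. The exon length of *Slc25a3* covers 5550 bases over all its transcripts. On the length of its longest coding transcript, 1341 bases, its level was 509 ± 48.4, beside 476 ± 22.9 for *Slc25a4* and 959 ± 112 for *Slc25a5*, so the order of *Slc25a3*, *Slc25a4* and *Slc25a39* (325 ± 17.5) depended on the length used.

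The next levels ran without a gap from *Slc25a20* (44 ± 1.4), the acylcarnitine carrier, through *Slc25a15* (41.4 ± 1.96), *Slc25a10* (38.6 ± 2.79), *Slc25a13* (35.8 ± 1.91) and *Slc25a24* (32.9 ± 3.83), each overlapping the next. At the lower end of the tested members stood *Slc25a21* (0.805 ± 0.276), *Slc25a42* (0.655 ± 0.15) and *Slc25a53* (0.371 ± 0.0796). In closely related pairs the levels were unequal. *Slc25a13* lay above *Slc25a12* (1.86 ± 0.21), both aspartate/glutamate carriers, *Slc25a39* above *Slc25a40* (5.11 ± 0.957), and *Slc25a24* above *Slc25a23* (2.32 ± 0.197), both calcium-regulated ATP-Mg/phosphate carriers, and in none of these pairs did the ranges overlap. Of the mitoferrins, which carry iron, *Slc25a28* (7.56 ± 2.37) lay above *Slc25a37* (3.43 ± 0.542). *Slc25a37* is the mitoferrin of red cell precursors, and in these libraries *Hba-a1*, *Hbb-b1* and *Gata1* were at 0, while the 9 erythroid markers summed to 37.5 to 47.5 (wild type) and 11.7 to 24.9 (mutant). Among these *Hbb-y* fell from 22.9 ± 4.44 to 5.37 ± 1.25 normalised counts. Only uniquely mapped reads were counted and copies of the globin genes were not searched, so their values of 0 are uncertain to that extent.

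**Figure D1:**
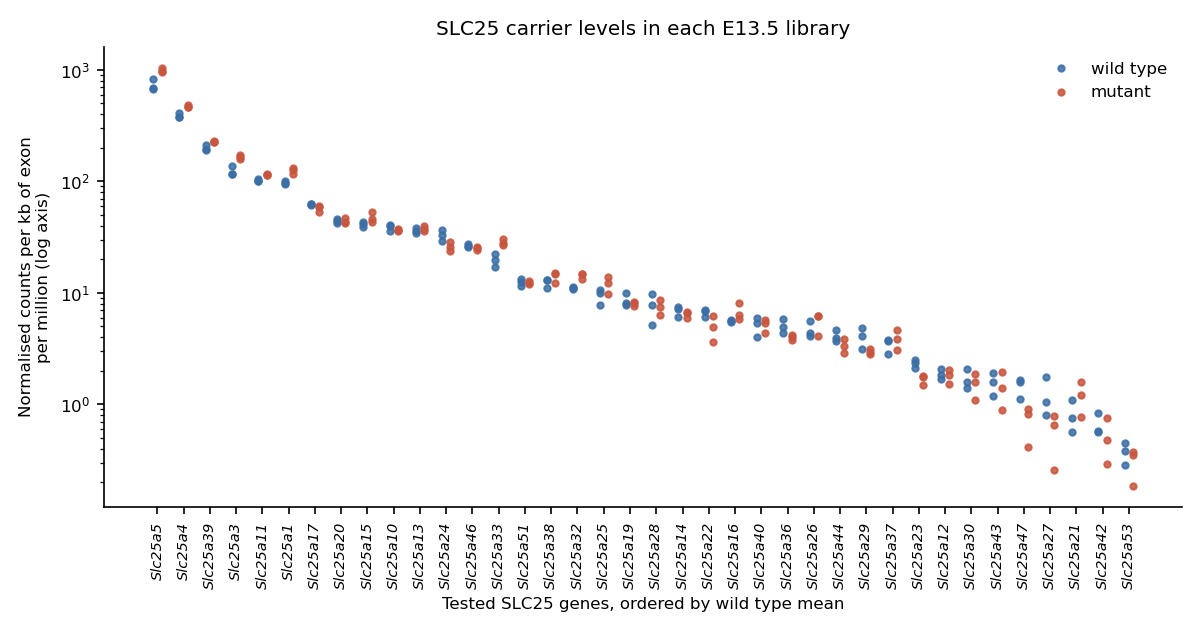
Levels of the 38 tested SLC25 genes, one point per library (wild type blue, mutant red), as normalised counts per kb of exon, scaled to library size, on a log axis, ordered by the wild type mean. *Slc25a5* (723), *Slc25a4* (389), *Slc25a39* (199) and *Slc25a3* (123) lead in wild type, and the lowest tested gene, *Slc25a53*, lies at 0.371.

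In mutant epithelium 7 of the 38 tested carriers rose, 1 fell and 30 did not pass an adjusted p of 0.05 (edgeR's quasi-likelihood test, Benjamini-Hochberg over all tested genes). The 7 that rose were *Slc25a1*, *Slc25a3*, *Slc25a4*, *Slc25a5*, *Slc25a32*, *Slc25a33* and *Slc25a39*, and *Slc25a24* fell. The share that rose was 18.4% beside 13.6% of all tested genes, and the share that fell was 2.63% beside 15.1%. The median log2 fold change (mutant over wild type) of the 38 was -0.01, against -0.04 over all tested genes, with 18 members above 0 and 20 below. In 17 members (44.7%) the libraries of the groups did not overlap, close to the 43.0% of all tested genes. The thresholds of the study were applied as an adjusted p under 0.01, a log2 fold change of at least 0.5 in size and a mean normalised count of at least 50. The paper states this last minimum as an RPKM of 50, with which no member was called. As applied, *Slc25a33* was called higher and no member was called lower, while 2.78% of all tested genes were called higher and 5.83% lower. The family as a whole took 0.511, 0.52 and 0.536% of all counts in wild type libraries 1 to 3 and 0.585, 0.59 and 0.582% in mutant libraries. The shares did not overlap, and *Slc25a3*, *Slc25a4* and *Slc25a5* together made up 53.7 to 57.7% of the family's counts in wild type against 59 to 61.9% in mutant.

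These counts depended on the scaling. With library size as the only scaling the median of all tested genes moved by -0.11 on the log2 scale, 5 members rose and 4 fell, and over all tested genes 1001 rose and 2562 fell, against 1702 and 1892 as reported. With a correction for gene length the median moved by 0.13, 12 members rose and none fell, and 2804 genes rose and 1153 fell. That correction also shifted the scale of each library. Centred on 0, a form chosen after seeing the data, it gave 9 members that rose and 2 that fell, among 1577 and 1690 genes. Relative to the median of each fit, the log2 estimates as reported, with library size alone and with the length correction were 0.50, 0.50 and 0.37 for *Slc25a5*, 0.48, 0.48 and 0.55 for *Slc25a3*, 0.57, 0.58 and 0.48 for *Slc25a33*, 0.23, 0.23 and 0.22 for *Slc25a39*, and -0.29, -0.29 and -0.25 for *Slc25a24*. Library size alone shifts all genes by nearly the same amount, so its relative values stay nearly the same by construction and test nothing. The length correction lowered *Slc25a5* and *Slc25a33* and raised *Slc25a3*.

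Members with many reads were measured more precisely. The 8 that passed had mean counts of 727 to 27500 and a median SE of 0.08 on the log2 scale, and the 30 that did not had means of 33.3 to 4490 and a median SE of 0.18. All 4 members with a mean count of at least 10000 rose, with a median log2 fold change of 0.35. At that level 156 of 296 tested genes (52.7%) rose and 16 (5.41%) fell, with a median of 0.20, a limit chosen after the values were seen. Of the 34 members under it, 3 rose and 1 fell, with a median of -0.06.

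**Figure D2:**
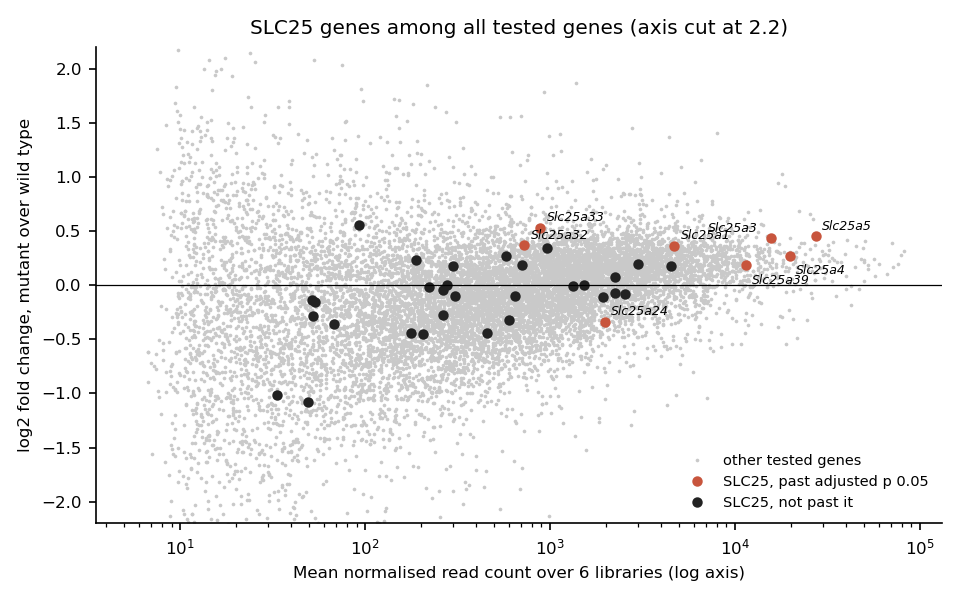
Mean normalised read count over the 6 libraries (log axis) against the log2 fold change, mutant over wild type, for all 12501 tested genes (grey) and the 38 tested SLC25 genes (red past an adjusted p of 0.05, black not). The vertical axis ends at 2.2, which leaves out 190 genes and no member, and the 4 members with means of at least 10000 all lie above 0.

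Both tested ADP/ATP carriers, which exchange matrix ATP for cytosolic ADP, rose. *Slc25a5* (ENSMUSG00000016319, mm9 chrX:34335646-34338802, plus strand) had 21800, 21500 and 26300 normalised counts in wild type against 31300, 33500 and 30500 in mutant libraries. Wild type 3 was the highest of its group, and the groups did not overlap. The mean rose from 23200 ± 2710 to 31800 ± 1530 (SD, n = 3), a log2 fold change of 0.45 (SE 0.08, 95% interval 0.29 to 0.62, adjusted p 0.00059, edgeR's quasi-likelihood test), or 1.37-fold. It lies on chromosome X, where 12.3% of 432 tested genes rose and 13.9% fell with a median of -0.02. *Slc25a4* (ENSMUSG00000031633, chr8:47292151-47296638, minus strand) had 17300, 17400 and 18900 against 21200, 22300 and 21300, again with no overlap. Its log2 fold change was 0.27 (SE 0.06, 95% interval 0.14 to 0.41, adjusted p 0.0047), or 1.21-fold.

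*Slc25a3* (ENSMUSG00000061904, chr10:90579319-90586804, minus strand), which brings in the phosphate for ATP synthesis, had 12600, 12500 and 14800 normalised counts in wild type against 17800, 18700 and 17400 in mutant libraries. As for the ADP/ATP carriers, wild type 3 was the nearest to the mutant libraries and did not reach them. The log2 fold change was 0.43 (SE 0.07, 95% interval 0.28 to 0.59, adjusted p 0.00054), or 1.35-fold. Without wild type 3 the log2 fold changes were 0.53 for *Slc25a3*, 0.57 for *Slc25a5* and 0.33 for *Slc25a4*, and all 3 genes passed under each of the 14 alternative settings tried. The third ADP/ATP carrier, *Slc25a31*, known from germ cells, was too low to be tested in the comparison. Wild type libraries held 3, 18 and 11 counts of it and every mutant library 0, or 32 against 0. With the mutant group set at a floor of 3 counts, this was 9.39-fold lower (6.16 to 12.8 with a library left out). Its adjusted p was 0.014 in edgeR without the filter on low counts and 0.013 in DESeq2. Its few reads lay in the wild type group alone and ranged from 3 to 18 there, so a loss was not established.

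**Figure D3:**
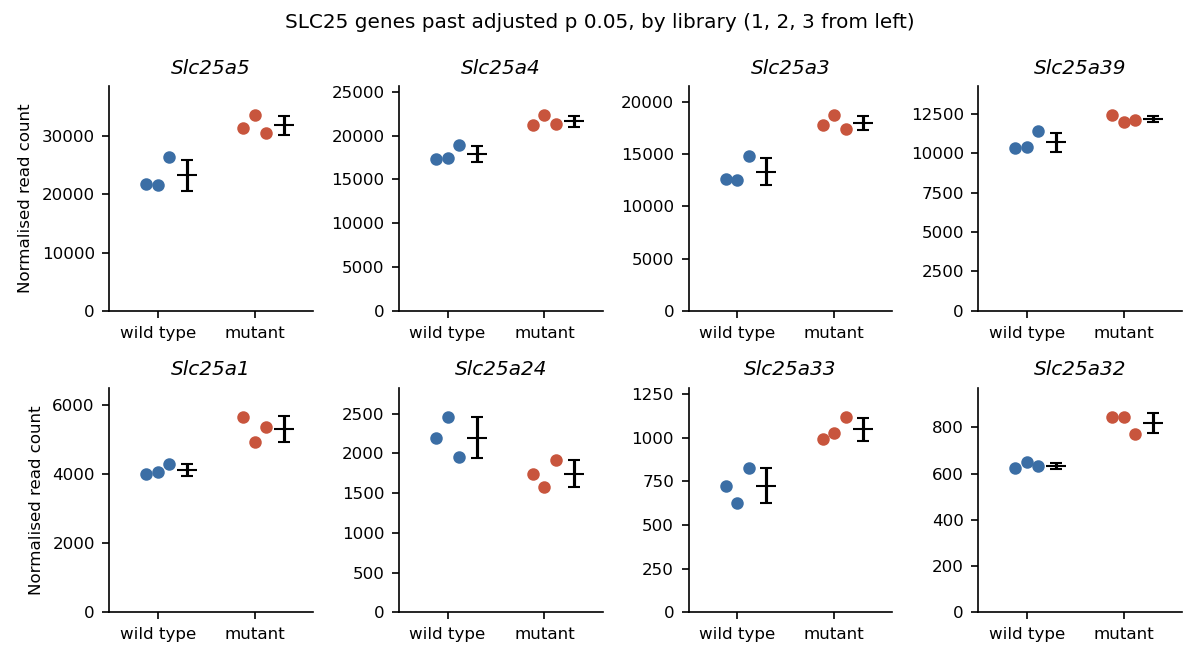
Normalised read counts of the 8 SLC25 genes past an adjusted p of 0.05 in each library (wild type 1 to 3 blue, mutant 1 to 3 red, left to right), each axis from 0, with the group mean and SD (n = 3) as black bars. In all 8 genes, chosen by their adjusted p in these same libraries, the groups do not overlap, beside 43.0% of all tested genes. *Slc25a24* is the one that is lower in mutant libraries.

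Of 4 carriers of di- and tricarboxylates, 1 rose and none fell. *Slc25a1* (ENSMUSG00000003528, chr16:17925304-17928312, minus strand) exports citrate, the source of cytosolic acetyl-CoA. It had 3990, 4060 and 4300 normalised counts in wild type against 5650, 4910 and 5360 in mutant libraries, all mutant values above all wild type values. Its log2 fold change was 0.37 (SE 0.07, 95% interval 0.21 to 0.52, adjusted p 0.002), or 1.29-fold. *Slc25a11* had 4150, 4140 and 4360 against 4800, 4780 and 4730. These groups did not overlap either, but the log2 fold change of 0.18 (95% interval 0.03 to 0.32) had an adjusted p of 0.059, and the gene shares 8.92% of its exon bases with *Rnf167* on the opposite strand. *Slc25a10*, the dicarboxylate carrier, had 2660, 2750 and 2390 against 2510, 2410 and 2470 (log2 fold change -0.08, adjusted p 0.49). *Slc25a21*, the oxodicarboxylate carrier, had a log2 fold change of 0.55 with a wide interval of -0.16 to 1.26.

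*Slc25a33* (ENSMUSG00000028982, chr4:149118145-149148386, minus strand) carries pyrimidine nucleotides into mitochondria and showed the largest change among members that passed. It had 722, 626 and 827 normalised counts in wild type against 994, 1030 and 1120 in mutant libraries, with no overlap. The log2 fold change was 0.53 (SE 0.12, 95% interval 0.28 to 0.79, adjusted p 0.0042), or 1.44-fold. It passed an adjusted p of 0.05 under all 14 alternatives, from 0.43 with library size as the only scaling to 0.65 without wild type 3. The call by the study's thresholds was lost when any library but wild type 3 was left out, with log2 fold changes of 0.44 to 0.57 and adjusted p of 0.012 to 0.026, and also when scaling by library size alone, with the centred gene-length correction (0.44) and with a minimum RPKM of 50. *Gm13068* overlaps 14.9% of its exon bases on the opposite strand, and reads of both cannot be told apart without strand. Its relative *Slc25a36* had 656, 765 and 573 against 505, 560 and 537, a log2 fold change of -0.32 (adjusted p 0.09), so the pair had estimates of opposite sign.

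Among carriers of cofactors, 1 of 7 tested rose. *Slc25a32* (ENSMUSG00000022299, chr15:38925737-38944262, minus strand), the folate and FAD carrier, had 624, 649 and 631 normalised counts in wild type against 845, 843 and 769 in mutant libraries. The wild type values lay close together and well below the mutant ones. The log2 fold change was 0.37 (SE 0.11, 95% interval 0.13 to 0.61, adjusted p 0.023), or 1.29-fold. It missed the threshold with library size as the only scaling (adjusted p 0.091) and without wild type 1, wild type 2, mutant 1 or mutant 2 (0.052 to 0.079). The other 6 had log2 fold changes of -0.36 to 0.27, from *Slc25a42* (adjusted p 0.51) to *Slc25a16* (0.16), both linked to coenzyme A. *Slc25a51*, the NAD carrier, had a log2 fold change of -0.0046 with a 95% interval of -0.21 to 0.20.

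Of 5 carriers of iron, glycine and glutathione, *Slc25a39* (ENSMUSG00000018677, chr11:102264299-102269260, minus strand) rose. It had 10300, 10400 and 11400 normalised counts in wild type against 12400, 12000 and 12100 in mutant libraries. The groups did not overlap, and the step was small, a log2 fold change of 0.19 (SE 0.07, 95% interval 0.05 to 0.33, adjusted p 0.043), or 1.14-fold. The call was lost with library size as the only scaling and in every fit that left out a library other than wild type 3 (adjusted p 0.095 to 0.16). *Slc25a40* had 219, 291 and 320 against 289, 309 and 236 (adjusted p 0.99), with an interval of -0.39 to 0.41 that also holds the value of *Slc25a39*. *Slc25a28* had 228, 291 and 151 against 218, 257 and 186, and *Slc25a37* had 306, 303 and 228 against 380, 314 and 252, and neither passed. *Slc25a38*, the glycine carrier of haem synthesis, had a log2 fold change of 0.19 (adjusted p 0.28).

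*Slc25a24* (ENSMUSG00000040322, chr3:108926067-108971375, plus strand) was the member that fell. It exchanges ATP-Mg for phosphate under the control of calcium and so sets the adenine nucleotide pool of the matrix. It had 2190, 2460 and 1950 normalised counts in wild type against 1740, 1580 and 1920 in mutant libraries. The groups came close, with wild type 3 just above mutant 3. The mean went from 2200 ± 257 to 1740 ± 172, a log2 fold change of -0.34 (SE 0.10, 95% interval -0.55 to -0.12, adjusted p 0.022). The call was lost under a correction for gene length (adjusted p 0.22) and without wild type 1, wild type 2, mutant 1 or mutant 2 (0.061 to 0.12). It was kept with that correction centred on 0 (adjusted p 0.042). *Slc25a23* had 245, 256 and 217 against 183, 185 and 155, with no overlap, and its estimate of -0.46 (adjusted p 0.082) did not pass. *Slc25a25* had an estimate of 0.34 (adjusted p 0.08).

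No carrier of aspartate and glutamate, of basic amino acids or of acylcarnitine passed. *Slc25a13* had 2170, 2320 and 2080 normalised counts in wild type against 2190, 2300 and 2420 in mutant libraries, and *Slc25a12* had 299, 263 and 240 against 294, 263 and 218. The groups overlapped in both genes. *Slc25a22*, a glutamate carrier, had 548, 552 and 479 against 486, 285 and 388 (log2 fold change -0.45, adjusted p 0.067), while its paralogue *Slc25a18* had 0 to 4.75 in all 6 libraries. *Slc25a15*, the ornithine carrier, had 2900, 2820 and 2640 against 3090, 2920 and 3590, and *Slc25a29*, a carrier of basic amino acids, had 244, 208 and 161 against 158, 144 and 149. Neither overlapped between groups, with log2 fold changes of 0.20 (adjusted p 0.097) and -0.44 (0.13). *Slc25a20* had a log2 fold change of 0.0062 with an interval of -0.18 to 0.20.

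None of the 3 relatives of the uncoupling proteins passed. The X-linked *Slc25a14* had 329, 282 and 343 normalised counts in wild type against 276, 301 and 311 in mutant libraries, and *Slc25a30* had 69.4, 53.1 and 46.6 against 62.1, 36.2 and 53.1. *Slc25a27* had the largest negative estimate of the 38 tested members, -1.08, with an interval of -2.07 to -0.10 and an adjusted p of 0.092. The other X-linked members had few reads. *Slc25a43* had 54.4, 41 and 66.5 against 31.1, 49 and 67.5, and *Slc25a53* had 69.4, 44.7 and 58.9 against 54.9, 58.6 and 28.8, both overlapping. *Slc25a46* and *Slc25a44*, which carries branched-chain amino acids, did not pass (-0.07, adjusted p 0.51, and -0.28, adjusted p 0.27). *Slc25a47*, a carrier of liver, had 44.5 ± 8.76 against 22.1 ± 8.13, without overlap, and a log2 fold change of -1.01 with an adjusted p of 0.13. Of the 30 tested members that did not pass, 7 had an unadjusted p under 0.05.

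**Figure D4:**
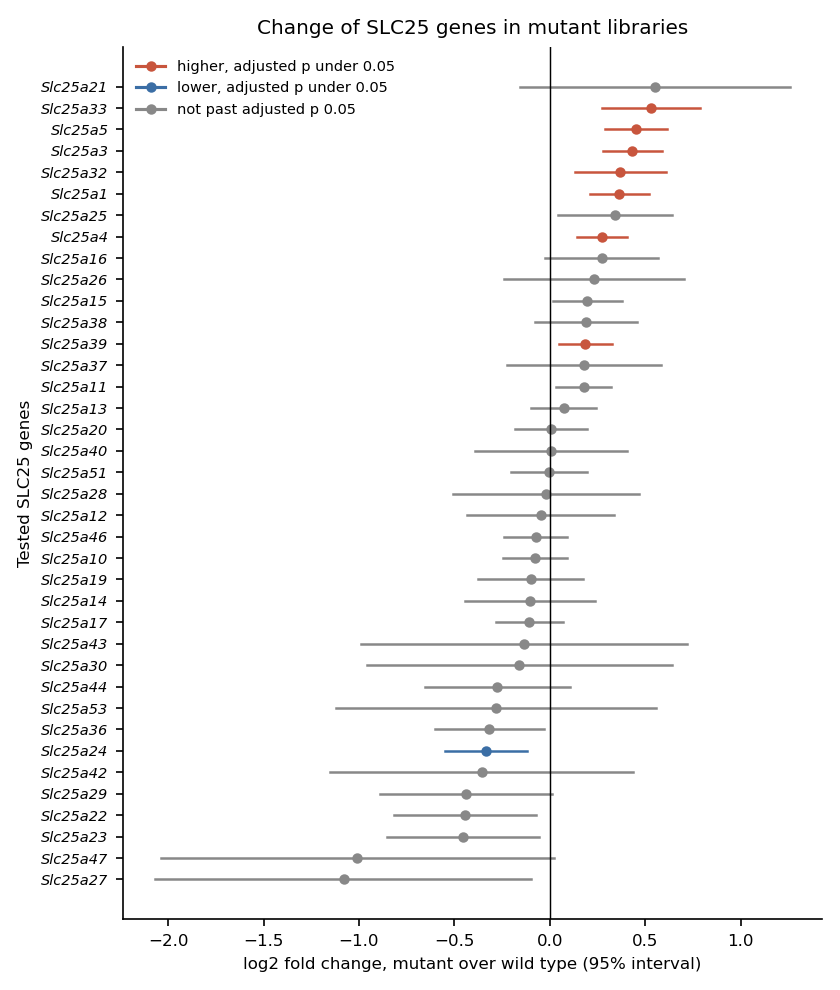
Log2 fold change, mutant over wild type, of the 38 tested SLC25 genes with 95% intervals (edgeR, 3 libraries a group), in red for the 7 that rose, blue for the 1 that fell and grey for the 30 that did not pass an adjusted p of 0.05. Intervals are narrow for *Slc25a4* (0.14 to 0.41) and wide for *Slc25a27* (-2.07 to -0.10).

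The 9 members that were not tested were *Slc25a2*, *Slc25a18*, *Slc25a31*, *Slc25a34*, *Slc25a35*, *Slc25a41*, *Slc25a45*, *Slc25a48* and *Slc25a54*. *Slc25a54* had 0 counts in all libraries, and the others had 1 to 41 counts over the 6 libraries. *Slc25a35* had 29 of its 41 counts in wild type 2, and *Rangrf* on the opposite strand overlaps 31.3% of its exon bases. *Slc25a48* had 10, 0 and 0 counts in the wild type libraries against 6, 5 and 5 in the mutant ones. At this depth the reported fit tested no difference for these genes. Values of *Slc25a31* from other fits are given above.

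The balance within paralogue pairs was compared as the log2 ratio of the counts per kb of both genes in each library, which does not depend on the scaling between libraries. It can still depend on a gene-length effect that differs between libraries. The genes of a pair can differ in exon length (1887 bases for *Slc25a33*, 6796 for *Slc25a36*), and the loess correction was not applied to the ratios. For 9 of 10 pairs every library had at least 10 counts of each gene. With 3 libraries against 3, the exact 2-sided permutation test cannot go below 0.1, so no pair could pass 0.05. *Slc25a33* over *Slc25a36* had log2 ratios of 1.99, 1.56 and 2.38 in wild type and 2.82, 2.73 and 2.91 in mutant libraries, a difference of 0.85 (exact p 0.1, 0.225 adjusted over 9 pairs). *Slc25a15* over *Slc25a29* had 3.17, 3.36 and 3.64 against 3.88, 3.94 and 4.18, a difference of 0.61. *Slc25a10* over *Slc25a11* had -1.35, -1.29 and -1.57 against -1.64, -1.69 and -1.64, and *Slc25a4* over *Slc25a5* had -0.85, -0.82 and -0.996 against -1.08, -1.10 and -1.03. These 4 of 9 pairs did not overlap between groups and share the same exact p. Taken singly, 43.0% of all tested genes did not overlap between groups either. The other 5 differed by -0.15 to 0.17 with exact p of 0.4 to 0.8.

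Of 13 tested genes of the carrier import route, 6 (46.2%) rose and none fell, beside 13.6% and 15.1% of all tested genes, with a median log2 fold change of 0.28 against -0.04 over all tested genes. The other 7 had adjusted p of 0.057 to 0.91. *Tomm22*, a receptor of the TOM complex, rose from 3850 ± 364 to 5490 ± 261 normalised counts (log2 fold change 0.51, adjusted p 0.00025), and *Tomm20* (0.34) and *Tomm70a* (0.26), its other receptors, rose as well. Of the small TIM chaperones, which escort carriers between the membranes, the X-linked *Timm8a1* (0.52), *Timm9* (0.44) and *Timm13* (0.36) rose. *Tomm22* and *Timm8a1* were called by the study's thresholds. *Tomm40*, the channel (0.01, adjusted p 0.91), and *Timm22*, the insertase (0.05, adjusted p 0.71), did not pass.

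Of 18 tested genes for other transporters and carrier relatives of mitochondria, 4 (22.2%) rose and 2 (11.1%) fell, with a median of -0.04. Over all tested genes 13.6% rose and 15.1% fell, also with a median of -0.04. *Mtch2* and *Vdac2* had mean counts over the libraries above 10000, where 52.7% of tested genes rose. *Mtch2*, a carrier relative of the outer membrane (0.35, adjusted p 0.0049), *Vdac2*, an outer membrane channel (0.37, adjusted p 0.002), and *Mpc2*, a subunit of the pyruvate carrier (0.37, adjusted p 0.011), rose. *Vdac1* rose too (0.20, adjusted p 0.038) and is named after its values were seen. The sideroflexins *Sfxn3* (-1.13, adjusted p 0.0024) and *Sfxn4* (-1.15, adjusted p 0.018) fell, and *Sfxn3* was called by the study's thresholds. *Ucp2* did not pass (adjusted p 0.55), and *Ucp1* and *Ucp3* were too low to test.

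Of 24 tested enzymes and other genes that work on carried substrates, 7 (29.2%) rose and 5 (20.8%) fell, with a median of 0.08. Over all tested genes 13.6% rose and 15.1% fell. *Mdh1*, *Mdh2*, *Idh3a* and *Oat*, among those that rose, had mean counts above 10000, where 52.7% of tested genes rose. In the malate-aspartate shuttle *Got1* (0.57), *Mdh1* (0.31) and *Mdh2* (0.29) rose, while *Got2* fell by 0.48 on the log2 scale (adjusted p 0.011). *Acly*, which splits the citrate that *Slc25a1* exports, fell from 4460 to 2950 normalised counts (-0.59, adjusted p 0.0012). *Mthfd2*, of mitochondrial folate metabolism, rose (0.62, adjusted p 0.003), and *Gldc*, of glycine cleavage, fell (-1.15, adjusted p 0.0013). *Idh3a* of the citric acid cycle (0.46), *Oat*, which uses ornithine (0.36), and *Ndufaf4*, an assembly factor of complex I and no shuttle enzyme (0.60), rose. *Ogdh* (-0.31, adjusted p 0.028) and *Fech* of haem synthesis (-0.29, adjusted p 0.022) fell and, like *Got2*, are named after their values were seen.

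Promoters are shown for *Slc25a3*, *Slc25a4*, *Slc25a5* and *Slc25a33*, the leading carriers and the largest rise. Windows of 250 bases before to 50 after the start came from RefSeq (GRCm38.p6), which matched 36 of the 47 members with 46 promoters. They were searched on both strands for the NRF1 motif (matched in *Slc25a3* as the first run of capitals), the ETS motif CCGGAAG, the GC box GGGCGG, the CCAAT box CCAAT, the E-box CACGTG and the TCF/LEF motif TCAAAG. Capitals mark the matches.
*Slc25a3*, chr10:91123918-91124217, minus strand: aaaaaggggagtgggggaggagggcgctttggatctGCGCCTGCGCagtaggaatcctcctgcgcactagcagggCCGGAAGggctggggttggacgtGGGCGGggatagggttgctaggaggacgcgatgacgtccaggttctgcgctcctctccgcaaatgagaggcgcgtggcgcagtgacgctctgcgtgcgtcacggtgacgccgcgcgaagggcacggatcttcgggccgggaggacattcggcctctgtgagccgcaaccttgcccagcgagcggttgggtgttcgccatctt
*Slc25a4*, chr8:46211013-46211312, minus strand: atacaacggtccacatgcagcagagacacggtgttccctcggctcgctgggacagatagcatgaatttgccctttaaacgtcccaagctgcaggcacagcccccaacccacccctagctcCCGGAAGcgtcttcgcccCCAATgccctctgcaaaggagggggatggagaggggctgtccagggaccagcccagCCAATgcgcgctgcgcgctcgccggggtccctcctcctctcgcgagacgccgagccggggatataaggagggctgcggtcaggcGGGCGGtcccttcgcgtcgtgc
*Slc25a5*, chrX:36795347-36795646, plus strand: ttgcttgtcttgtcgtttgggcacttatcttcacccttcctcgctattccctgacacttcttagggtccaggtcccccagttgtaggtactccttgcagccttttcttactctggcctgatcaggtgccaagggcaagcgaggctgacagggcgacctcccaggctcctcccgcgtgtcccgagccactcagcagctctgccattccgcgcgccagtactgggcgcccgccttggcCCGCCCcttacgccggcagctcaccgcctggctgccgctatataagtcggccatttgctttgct
*Slc25a33*, chr4:149774218-149774517, minus strand: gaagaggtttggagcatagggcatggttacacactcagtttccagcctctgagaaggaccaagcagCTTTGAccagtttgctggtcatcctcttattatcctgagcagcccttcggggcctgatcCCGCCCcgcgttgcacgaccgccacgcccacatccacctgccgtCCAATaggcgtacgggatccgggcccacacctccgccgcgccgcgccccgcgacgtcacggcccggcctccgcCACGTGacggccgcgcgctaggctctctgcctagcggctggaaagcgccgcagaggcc
The GC box was in 82.6% of member promoters and in 35.7% of all 32851 promoters. The ETS motif was in 15.2% and 8.86%, the NRF1 motif in 4.35% and 4.6%, the CCAAT box in 47.8% and 37.4%, the E-box in 17.4% and 7.15%, and the TCF/LEF motif in 10.9% and 16%. Of the 7 members that rose, 6 had a promoter in the table. All 6 held a GC box, 2 an ETS motif (*Slc25a3* and *Slc25a4*) and 1 a TCF/LEF motif (*Slc25a33*). A match is a match of letters and was not tested as a binding site.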

How the data were processed

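The authors mapped reads to mm9 with STAR 2.5.2b, counted uniquely mapped reads per gene with featureCounts 1.5.1 and deposited raw read counts, 1 table for each library, made from 500 sorted cells with SMARTer v4 and 15 PCR cycles. Whether counting used strand is not given in the sources used here. The labels name 3 biological replicates a genotype. The 12501 genes that passed filterByExpr were tested on genotype with edgeR 4.0.16 in R 4.3.3 (TMM, quasi-likelihood, Benjamini-Hochberg), where the biological coefficient of variation was 0.144. In simulated counts for this comparison (12501 genes) 98.1% of genes changed by 1 on the log2 scale and 26.3% of those changed by 0.5 were recovered. Every simulated gene had the same dispersion (0.0209), and only 105 genes were changed by 1 and 95 by 0.5. The reported fit estimated dispersion by gene and had many more genes that passed, so these shares do not give its power. Normalised counts are TMM-scaled. Exon lengths and positions came from GENCODE vM1 (mm9), which gave a position for 98.5% of tested genes, and near-identical copies from BLAST+ 2.17.0. The study's minimum of 50, an RPKM in its text, was applied as a mean normalised count.

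Members and lists were chosen with earlier results of these data known. Values per library are given for members past adjusted p 0.05, the 6 with the highest level, those on chromosome X and the paralogue pairs. From the lists, members past the study's thresholds and up to 4 more with the smallest p are named for each list. Alternatives were DESeq2 1.42.0, RLE, library size alone, other filters and thresholds, a gene-length correction by loess with span 0.5, a block on replicate number, and fits that each left out 1 library. The gene-length correction centred on 0 and the coding transcript length were chosen after seeing the data.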

Additional observations from a re-analysis of the deposited data

How the results depend on the processing

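*Slc25a1*, *Slc25a3*, *Slc25a4*, *Slc25a5* and *Slc25a33* passed an adjusted p of 0.05 in all 14 alternative fits, *Slc25a24* and *Slc25a32* in 9 each and *Slc25a39* in 7. Members that rose numbered 12 under the gene-length correction, 9 with it centred on 0 and 5 to 8 with a library left out. Members that fell numbered 2 with DESeq2, 4 with library size alone, 3 with no filter, 2 with the mean-50 filter, 2 with the centred correction, 0 with the uncentred one and 0 at an adjusted p under 0.01, and 0 to 3 with a library left out (0 without wild type 2, 3 without wild type 3). *Slc25a31* is among those that fell in 4 leave-out fits (not without wild type 2 or 3), where it passed the count filter only through the wild type group, as well as with DESeq2 and no filter. Members called higher by the study's thresholds numbered 0 with library size alone, 4 with the length correction, 0 at a log2 fold change of 1, 5 with no minimum, 0 with an RPKM of 50, and 0 to 3 with a library left out (3 without wild type 3, otherwise 0); the centred correction called *Slc25a3* in place of *Slc25a33*. In the lists, 3 enzymes fell under the length correction and 3 to 5 with a library left out. Of the other transporters 2 to 5 rose and 1 to 2 fell with a library left out, and 3 fell with library size alone. With no filter and with the replicate block 7 enzymes fell.

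Estimates under the alternatives were followed for 23 members: those that passed, the 6 highest, those on chromosome X and the paralogue pairs. Of these, 7 changed sign in at least 1 alternative, with reported estimates of -0.16 to 0.07, and none of them had passed. Sign changes of the other tested members were not counted. With the length correction *Slc25a10* stood at 0.10 and *Slc25a12* at 0.16 (0.029 centred). With library size alone *Slc25a13* stood at -0.035 and *Slc25a40* at -0.10, and *Slc25a40* was -0.0084 with the mean-50 filter and -0.0050 with the centred correction. *Slc25a28* was 0.0063 with DESeq2, 0.0049 with RLE and 0.013 with the replicate block. With a library left out the ranges were -0.15 to 0.061 for *Slc25a12*, -0.22 to 0.22 for *Slc25a28*, -0.34 to 0.032 for *Slc25a30*, -0.14 to 0.14 for *Slc25a40*, -0.43 to 0.11 for *Slc25a43*, -0.26 to 0.028 for the balance of *Slc25a12* over *Slc25a13*, -0.16 to 0.29 for the balance of *Slc25a14* over *Slc25a30* and -0.24 to 0.032 for the balance of *Slc25a23* over *Slc25a24*. The cause of these changes was not tested. Wild type levels moved with the longest transcript to 959 (*Slc25a5*), 476 (*Slc25a4*), 325 (*Slc25a39*), 169 (*Slc25a3*; 509 for the coding transcript), 126 (*Slc25a11*) and 126 (*Slc25a1*), and *Slc25a11* to 106 with library size alone. Samples with the same number did not deviate together (correlations of -0.04 to 0.01), so the numbers do not pair them, nor did every sample correlate best with its own number. With the replicate block 6 members rose, without *Slc25a39*, and 1 fell.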
